A study of Mus musculus with 26 samples.

Results

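The unfolded protein response is the set of reactions with which a cell answers an overload of unfolded protein in the endoplasmic reticulum (ER), the compartment where secreted and membrane proteins are folded. The 10 genes described here were chosen by symbol (Hspa5, Hsp90b1, Xbp1, Atf6, Ern1, Eif2ak3, Dnajb9, Herpud1, Pdia4 and Sdf2l1), and each matched 1 of the 39017 gene rows of the adipocyte and stromal vascular tables. They were measured by polyA RNA sequencing of epididymal (visceral) fat from male wild type C57BL/6J mice. Lean mice ate a diet with 10% fat (LFD) for 12 weeks from 9 to 10 weeks of age, obese mice ate a diet with 60% fat (HFD) for 12 weeks, and formerly obese mice ate the HFD for 9 weeks and then the LFD for 3 weeks (SW). Collagenase was used to free the cells of the fat pads, and centrifugation then parted the buoyant adipocytes from a pellet of stromal vascular cells (SVC), a mixture of immune, vascular and progenitor cells. In the adipocyte fraction, 3 libraries per diet could be tied to a group. In the SVC fraction, 1 LFD, 2 HFD and 3 SW libraries could be. The labels do not say whether a library came from 1 mouse or from pooled animals, so the p-values measure the spread between these libraries.

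In mammals the overload is sensed by proteins of the ER membrane. IRE1 (Ern1) cuts the Xbp1 mRNA so that it encodes an active transcription factor, PERK (Eif2ak3) phosphorylates eIF2α, which lowers translation and favours that of Atf4, and ATF6 is cut to release its own transcription factor domain. Their targets include the chaperone BiP (Hspa5), GRP94 (Hsp90b1), the co-chaperones ERdj4 (Dnajb9) and SDF2L1, the disulfide isomerase ERp72 (Pdia4) and Herpud1, which takes part in ER-associated degradation (ERAD). In adipose tissue this response is studied in obesity and insulin resistance. Gene-level counts do not separate cut from uncut Xbp1 mRNA, and cleavage or phosphorylation of the sensors was not measured, so the values below are transcript levels.

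The promoters of 9 members were found in the RefSeq table (GRCm38.p6), each as the 250 bases before and 50 bases after the transcription start. Both strands were searched for 3 short sequences known as binding elements of the response: the ER stress response element ERSE (CCAAT, then 9 bases of any kind, then CCACG), ERSE-II (ATTGG, 1 base of any kind, then CCACG) and the unfolded protein response element UPRE (TGACGTGG). ERSE occurred in the windows of Hspa5 and Hsp90b1, as in 0.119% of all 32851 promoter windows, and ERSE-II occurred in that of Herpud1, as in 0.0365% of the windows. UPRE occurred in no member's window and in 0.676% of all windows. The 4 windows below are shown because Hspa5 and Hsp90b1 share an element, Herpud1 carries the other element and moved in the opposite direction from Hspa5, and Sdf2l1 had the largest difference between diets. They are written 5′ to 3′ on the strand of the gene, and capitals mark ERSE in Hspa5 and in Hsp90b1, where it occurs once on each strand, and ERSE-II in Herpud1.
Hspa5, chr2:34771840-34772139, plus strand: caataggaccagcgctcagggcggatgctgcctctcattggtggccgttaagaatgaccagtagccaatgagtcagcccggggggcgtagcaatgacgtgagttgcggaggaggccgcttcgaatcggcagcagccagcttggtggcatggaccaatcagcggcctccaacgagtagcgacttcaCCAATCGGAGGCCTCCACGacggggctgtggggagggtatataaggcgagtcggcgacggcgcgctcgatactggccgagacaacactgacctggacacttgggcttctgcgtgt
Hsp90b1, chr10:86705395-86705694, minus strand: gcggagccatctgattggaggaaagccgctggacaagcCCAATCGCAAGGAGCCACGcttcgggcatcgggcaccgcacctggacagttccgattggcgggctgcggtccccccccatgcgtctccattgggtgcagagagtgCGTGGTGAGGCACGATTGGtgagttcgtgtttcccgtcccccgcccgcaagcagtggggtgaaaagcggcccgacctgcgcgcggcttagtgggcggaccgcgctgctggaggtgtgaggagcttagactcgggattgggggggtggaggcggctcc
Herpud1, chr8:94386179-94386478, plus strand: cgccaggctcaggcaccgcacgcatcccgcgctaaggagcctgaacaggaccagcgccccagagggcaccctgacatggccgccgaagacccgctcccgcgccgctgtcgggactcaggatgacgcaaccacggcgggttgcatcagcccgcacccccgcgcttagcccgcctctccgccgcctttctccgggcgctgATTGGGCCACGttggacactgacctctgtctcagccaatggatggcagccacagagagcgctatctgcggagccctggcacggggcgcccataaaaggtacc
Sdf2l1, chr16:17132334-17132633, minus strand: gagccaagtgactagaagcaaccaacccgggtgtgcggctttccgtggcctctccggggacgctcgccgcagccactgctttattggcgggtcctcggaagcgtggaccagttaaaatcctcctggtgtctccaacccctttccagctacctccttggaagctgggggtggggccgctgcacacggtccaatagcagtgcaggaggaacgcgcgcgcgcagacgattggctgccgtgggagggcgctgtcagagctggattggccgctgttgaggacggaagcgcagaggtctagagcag

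The element of Hspa5 began 65 bases before the start and that of Herpud1 52 bases before it, and those of Hsp90b1 began 212 and 107 bases before its start. Only exact matches were counted, so a window without a match may still hold a near match. A match describes letters only, and binding of ATF6 or XBP1 was not measured.

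The libraries held 5781902 to 23725647 counts, and the lowest count of any member in any library was 59, for Sdf2l1. Levels are given as CPM, counts per 1000000 counts of the library after TMM scaling, within each fraction unless stated otherwise. The summed level of 8 adipocyte markers (among them Adipoq, Plin1 and Lep) was 3834 to 21062 CPM in the 9 adipocyte libraries and 268 to 1084 CPM in the 6 SVC libraries on a scale common to both fractions, and no defining adipocyte marker was at 0 in either. The 2 SVC libraries of the HFD group stood far apart. Mitochondrial transcripts were 6.34% of the counts in the library numbered 212 and 33.5% in that numbered 411, and hemoglobin transcripts were 0.287% and 3.09%. The other SVC libraries had 4.36 to 9.54% mitochondrial and 2.76 to 5.15% hemoglobin transcripts. Library 411 thus stood out by its mitochondrial share and library 212 by its low hemoglobin share, which was 0.0614 to 0.322% in the adipocyte libraries. A chi-square comparison of the counts of 212 and 411 gave 376 per degree of freedom, against 12.8 to 89.5 for the other replicate pairs. This measure uses raw counts, so it grows with depth and weighs abundant transcripts most. It is therefore not independent of the shares above.

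Compared per length (CPM per kb of the longest GENCODE M21 transcript, all libraries scaled together), the 3 sensors came last in lean adipocytes, and Hsp90b1 and Hspa5 led there, while Xbp1 and Herpud1 stood above the other 3 chaperones and folding enzymes. In lean adipocytes Hsp90b1 was at 152 ± 4.42 CPM per kb (SD, n = 3) and Hspa5 at 118 ± 17.0, followed by Xbp1 at 78.6 ± 11.6, Herpud1 at 32.6 ± 2.23 and Pdia4 at 29.3 ± 2.14. Dnajb9 stood at 15.9 ± 3.96 CPM per kb, Sdf2l1 at 7.91 ± 1.5015, Atf6 at 4.19 ± 0.337, Eif2ak3 at 3.87 ± 0.572 and Ern1 at 1.31 ± 0.175. The neighbours Herpud1 and Pdia4, and Atf6 and Eif2ak3, differed by less than the sum of their SDs. In SW stromal vascular cells the order was another one: Xbp1 led at 180.2 ± 51.4 CPM per kb, Herpud1 (65.5 ± 9.07), Sdf2l1 (65.4 ± 5.49) and Hspa5 (62.7 ± 21.0) lay within their spread of each other, and Hsp90b1 was at 32.0 ± 13.5. The transcript length is that of a reference annotation and not of the isoforms these cells made.

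To ask which members differed with obesity, HFD adipocytes were compared with LFD adipocytes. Among them, 2 of the 3 sensors, 4 of the 5 chaperones and folding enzymes, and the ERAD gene passed the test: Ern1, Atf6, Hspa5, Dnajb9, Pdia4 and Sdf2l1 were higher in obese mice and Herpud1 was lower. Thus 7 of 10 members were called (edgeR quasi-likelihood test, Benjamini-Hochberg adjusted p under 0.05 over 14461 genes), where 51.5% of all genes tested were called. In the higher direction it was 6 of 10 members against 26.5% of all genes, and in the lower direction 1 of 10 against 25.0%. The members' median log2 fold change was 0.56, and that of all genes tested was -0.03. The HFD and LFD libraries did not overlap for 9 of 10 members (8 higher, 1 lower), as for 62.7% of all genes tested (32.1% higher, 30.5% lower). Exact permutation tests of single genes could not go below p = 0.1 with 3 libraries against 3.

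**Figure D1:**
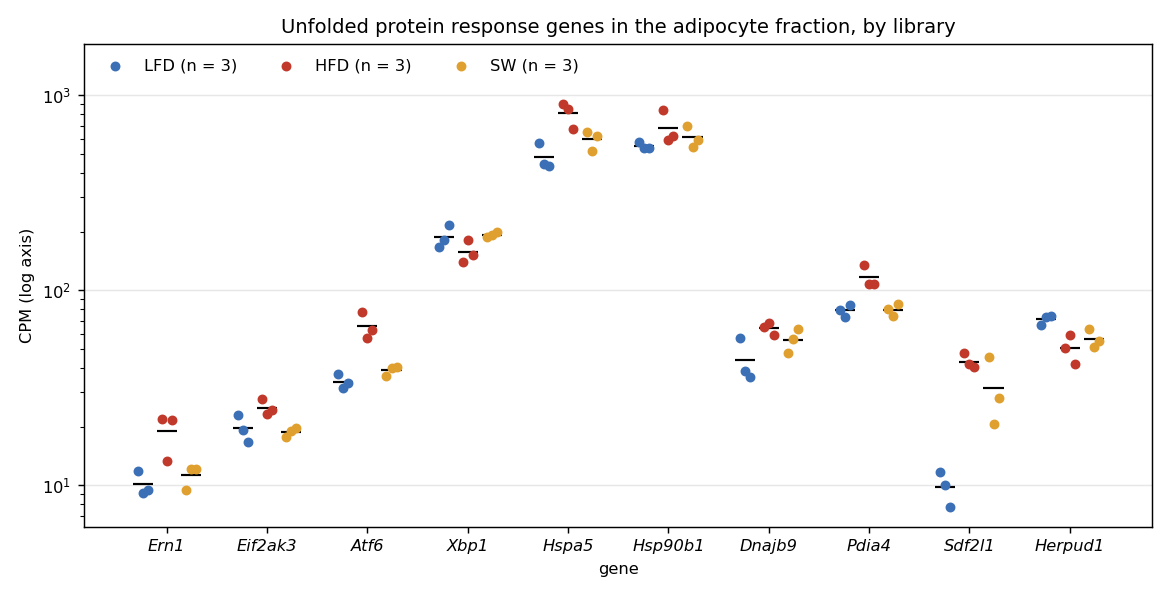
Level of the 10 members in each adipocyte library in CPM on a log axis, with 1 point per library and a black line at the mean of the 3 libraries of each diet (LFD blue, HFD red, SW orange). Sdf2l1 lay between 7.78 and 11.7 CPM in LFD and between 40.2 and 47.5 CPM in HFD, and Xbp1 overlapped between the diets.

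Among the sensors, Ern1, the gene of IRE1, was at 21.9, 13.3 and 21.7 CPM in the HFD libraries and at 11.9, 9.18 and 9.49 CPM in the LFD libraries. The lowest HFD library was close to the highest LFD library without overlapping it, and the log2 fold change was 0.91 ± 0.21 (SE, adjusted p = 0.00564, edgeR). Atf6 was at 77.2, 57.0 and 62.9 CPM in HFD and at 37.4, 31.4 and 33.4 CPM in LFD. All HFD libraries lay well above all LFD libraries, a 1.93-fold difference (log2 0.95 ± 0.13 SE, adjusted p = 0.000306). Eif2ak3, the gene of PERK, was at 27.7, 23.2 and 24.3 CPM in HFD and at 23.0, 19.2 and 16.7 CPM in LFD. These groups nearly touched, and the log2 difference of 0.35 (95% interval 0.05 to 0.66) had an adjusted p of 0.0515 (edgeR), just above the threshold. Over the 9 alternatives that kept all libraries the adjusted p was 0.0402 to 0.144, and 6 of them called it, DESeq2 and limma-voom included.

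Xbp1, the transcription factor downstream of IRE1, did not follow the sensors. It was at 141, 182 and 151 CPM in HFD and at 166, 181 and 216 CPM in LFD. The groups overlapped, and the log2 difference was -0.25 (95% interval -0.56 to 0.06, adjusted p = 0.164, edgeR). A ratio of counts within a library does not depend on scaling between libraries. The ratio of Hspa5 to Xbp1 counts was 6.43, 4.68 and 4.45 in HFD and 3.44, 2.47 and 2.02 in LFD, so it was higher in every obese library than in any lean one.

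Among the chaperones, Hspa5 was at 904, 850.0 and 673 CPM in HFD and at 573, 446 and 436 CPM in LFD. The groups did not overlap, and the fold was 1.67 (log2 0.74 ± 0.18 SE, adjusted p = 0.00672, edgeR). Hsp90b1, a chaperone of the same compartment with the same promoter element, was at 839, 590.2 and 619 CPM in HFD and at 575, 536 and 539 CPM in LFD. Its higher mean rested mostly on the library numbered 401, and its log2 difference of 0.31 (95% interval -0.08 to 0.70) did not pass the test (adjusted p = 0.16). Sdf2l1, a small ER protein that binds BiP and its DnaJ partners, had the largest difference of the members. It was at 47.5, 41.8 and 40.2 CPM in HFD and at 11.7, 10.1 and 7.78 CPM in LFD, a 4.38-fold difference (log2 2.13 ± 0.27 SE, adjusted p = 0.000181).

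Pdia4 and Dnajb9 changed less. Pdia4, which forms and rearranges disulfide bonds, was at 135, 108 and 108 CPM in HFD and at 79.4, 73.3 and 84.0 CPM in LFD (log2 0.57 ± 0.12 SE, adjusted p = 0.00386, edgeR). Dnajb9, which delivers misfolded clients to BiP, was at 64.9, 68.0 and 59.0 CPM in HFD and at 57.2, 38.6 and 36.1 CPM in LFD. One lean library came close to the obese ones, and the log2 difference was 0.55 ± 0.18 SE (adjusted p = 0.0256). This call was lost when any of 4 libraries was left out (numbered 401, 402, 405 and 406), with adjusted p up to 0.101, and with upper-quartile scaling (0.0576) or an offset for GC content (0.0535).

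Herpud1, an ER membrane protein that helps to assemble the degradation complex, moved the other way. It was at 50.9, 59.4 and 42.0 CPM in HFD and at 66.6, 73.4 and 73.8 CPM in LFD. All obese libraries lay below all lean ones, and the log2 fold change was -0.49 ± 0.14 SE (adjusted p = 0.0148, edgeR). The ratio of Hspa5 to Herpud1 counts was 14.3 to 17.8 in HFD and 5.91 to 8.60 in LFD. Without the library numbered 403 the adjusted p of Herpud1 was 0.0689, and without that numbered 405 it was 0.0518.

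Markers of other cell types moved with the diet in the same libraries. All 10 macrophage markers were called higher in HFD than in LFD adipocytes. Their summed level, on the scale common to both fractions, was 7269 to 8371 CPM in HFD, 610 to 992 CPM in LFD and 5219 to 7675 CPM in SW, with no marker at 0 in any library. In SW, 10 of 10 were called higher than in LFD and 4 of 10 lower than in HFD. The summed adipocyte markers were 3834 to 7888 CPM in HFD, 11280 to 21062 CPM in LFD and 7819 to 10152 CPM in SW. Mast cell markers were 64.6 to 155 CPM in HFD and 26.0 to 42.3 CPM in LFD (4 of 5 called higher), progenitor and fibroblast markers 2417 to 3193 and 1634 to 2246 CPM (2 of 6 called higher), and endothelial markers 655 to 1206 and 1623 to 1756 CPM (4 of 6 called lower). Plasma cells, which have a large ER, had a summed marker level of 109 to 134 CPM in HFD and 62.7 to 99.2 CPM in LFD (2 of 6 called higher). Mesothelial markers were 9.64 to 25.0 and 59.5 to 110.0 CPM (4 of 5 called lower). B cell, T cell and epididymal epithelium markers together had 1 called gene, a B cell marker that was higher, and each list summed to at most 23.0 CPM in any HFD or LFD adipocyte library. The part of these markers in the differences of the members, and of the other pathway genes given below, was not tested. On the same scale Sdf2l1, higher in HFD, was at 33.4 to 78.9 CPM in the 6 SVC libraries and at 7.01 to 10.3 CPM in lean adipocytes. Ern1, also higher in HFD, was at 20.5 to 32.7 CPM in SVC and at 8.20 to 10.5 CPM in lean adipocytes. Herpud1, lower in HFD, was at 59.2 to 148 CPM in SVC and at 58.6 to 66.5 CPM in lean adipocytes. For the other called members, all higher in HFD, the ranges in SVC and in lean adipocytes overlapped, as those of Herpud1 did. They were 22.3 to 54.3 and 28.0 to 32.9 CPM for Atf6, and 68.4 to 116 and 65.4 to 75.7 CPM for Pdia4. For Dnajb9 they were 17.1 to 48.6 and 32.6 to 50.3 CPM, and for Hspa5 157 to 809 and 393 to 503 CPM. Hspa5 was below every lean adipocyte library in 4 of the 6 SVC libraries, but at 809 and 400 CPM in the HFD ones. In bulk fractions, fewer cells of a type and less RNA per cell cannot be told apart.

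To ask which differences were still present after weight loss, SW adipocytes were set beside HFD and LFD adipocytes. These comparisons share libraries, so each member's own values are given. Against HFD, 4 of 10 members were lower and none was higher (31.4% of all genes tested were called, 15.9% lower), namely the 3 sensors Ern1, Eif2ak3 and Atf6 and the isomerase Pdia4. Against LFD, 1 of 10 members was called, Sdf2l1, which was higher (17.1% of all genes tested were called, 10.9% higher). No member was called lower than in LFD, where 6.18% of all genes were. The SW and HFD libraries did not overlap for 6 members, 5 lower and 1 higher (48.6% of all genes tested, 25.2% lower and 23.3% higher). The SW and LFD libraries did not overlap for 2, Sdf2l1 and Herpud1 (36.7% of all genes tested, 19.1% higher and 17.5% lower).

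**Figure D2:**
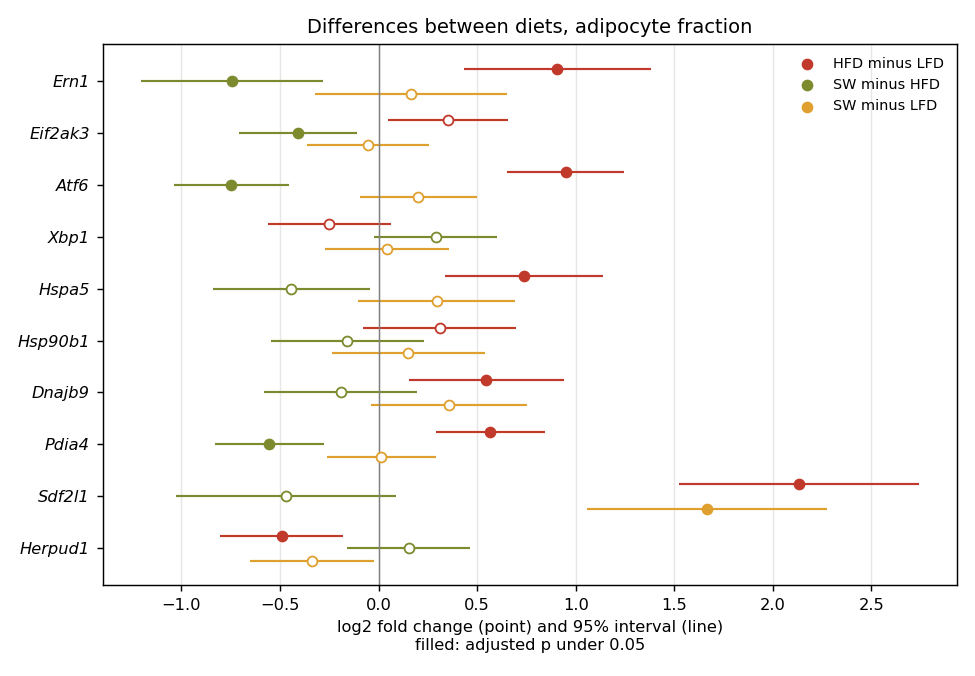
Log2 fold change of each member between diets in the adipocyte fraction, with 95% intervals from the edgeR fit (HFD minus LFD red, SW minus HFD green, SW minus LFD orange); filled points have an adjusted p under 0.05. The SW minus LFD interval excluded 0 for Sdf2l1, from 1.06 to 2.27, and for Herpud1, from -0.65 to -0.02, and only the first had an adjusted p under 0.05.

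The sensors and Pdia4 in SW were close to the lean level. Atf6 was at 36.5, 40.2 and 40.5 CPM in SW, below every HFD library (log2 -0.75 ± 0.13 SE, adjusted p = 0.0058, edgeR), and its SW minus LFD difference was 0.20 (95% interval -0.09 to 0.50). Ern1 was at 9.46, 12.1 and 12.2 CPM in SW (log2 -0.74 ± 0.21 against HFD, adjusted p = 0.0243) and differed from LFD by 0.16 (95% interval -0.32 to 0.65). Pdia4 was at 79.9, 74.1 and 85.0 CPM (log2 -0.55 ± 0.12 against HFD, adjusted p = 0.0117), with a difference from LFD of 0.01 (95% interval -0.26 to 0.29). Eif2ak3 was at 17.8, 19.1 and 19.7 CPM (log2 -0.41 ± 0.13 against HFD, adjusted p = 0.0434). The call of Eif2ak3 was lost in 6 of the 9 fits that left out 1 library (adjusted p up to 0.12, without any of 401, 403, 405, 407, 408 and 409), and that of Ern1 in 3 of them (up to 0.0918, without 401, 403 or 407).

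Sdf2l1 remained above the lean level. It was at 45.7, 20.6 and 27.9 CPM in SW, where the LFD libraries were at 7.78 to 11.7 CPM, a 3.17-fold difference (log2 1.66 ± 0.27 SE, adjusted p = 0.00235, edgeR). Of the 3 SW libraries, that numbered 407 was within the HFD range and the other two lay between the diets. Library 407 stood apart from its replicates, with a chi-square of 89.5 and 80.4 per degree of freedom against 12.8 between 408 and 409. It also had the highest summed macrophage markers of the SW libraries (7675 CPM against 5219 and 5475) and mast cell markers (222 CPM against 96.5 and 99.3), and the part of these in its Sdf2l1 level was not tested. The SW minus HFD difference was -0.47 (95% interval -1.02 to 0.09, adjusted p = 0.173). Without the library numbered 407 it was -0.83 (adjusted p = 0.0156), while the difference from LFD was 1.30 and stayed called.

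For Hspa5 and Dnajb9 the SW mean lay between those of the other diets. Hspa5 was at 647, 520.2 and 617 CPM, below all HFD libraries and overlapping those of LFD. Its difference from HFD was -0.44 (95% interval -0.84 to -0.04, adjusted p = 0.0819) and from LFD 0.30 (-0.10 to 0.69, adjusted p = 0.291), so it was called from neither (edgeR). Dnajb9 was at 47.8, 56.5 and 63.5 CPM and was called from neither (adjusted p = 0.419 against HFD and 0.202 against LFD). Hsp90b1 was at 697, 545 and 591 CPM, within the range of the other diets. Xbp1 was at 189, 192 and 199 CPM, above all HFD libraries, and its difference from HFD was 0.29 (95% interval -0.02 to 0.60, adjusted p = 0.137). Herpud1 was at 63.3, 51.1 and 55.1 CPM, below all LFD libraries, and its difference from LFD was -0.34 (-0.65 to -0.02, adjusted p = 0.13).

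The other genes of the pathway were taken from 4 lists. Of 17 ER folding genes, 10 were called higher in HFD than in LFD adipocytes and 1 lower, with a median log2 fold change of 0.38. Of 16 genes of ERAD and the translocon, the channel that passes new proteins into the ER, 7 were higher and 2 lower (median 0.27). Of 14 other regulators of the response, 8 were higher and none lower (median 0.31). Of 16 genes of the PERK and ATF4 branch, 2 were higher and 5 lower (median -0.29, range -2.04 to 3.70). Of all genes tested, 26.5% were higher and 25.0% lower, and differences between the lists were not tested. Against HFD, SW adipocytes had 4 ER folding genes lower and none higher, 4 ERAD and translocon genes lower and 2 higher, 5 other regulators lower and none higher, and 5 genes of the PERK and ATF4 branch higher and none lower (all genes tested, 15.6% higher and 15.9% lower). Against LFD, 2 genes of each of the first 3 lists and 3 of the PERK and ATF4 branch were higher in SW, and none was lower (all genes tested, 10.9% higher and 6.18% lower). In SVC, SW against HFD, 1 ER folding gene was higher and 5 were lower, 2 ERAD and translocon genes were lower, 2 other regulators were higher and 3 lower, and no gene of the PERK and ATF4 branch was called by edgeR (all genes tested, 5.71% higher and 11.7% lower). Several of these counts are near the share over all genes.

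**Figure D3:**
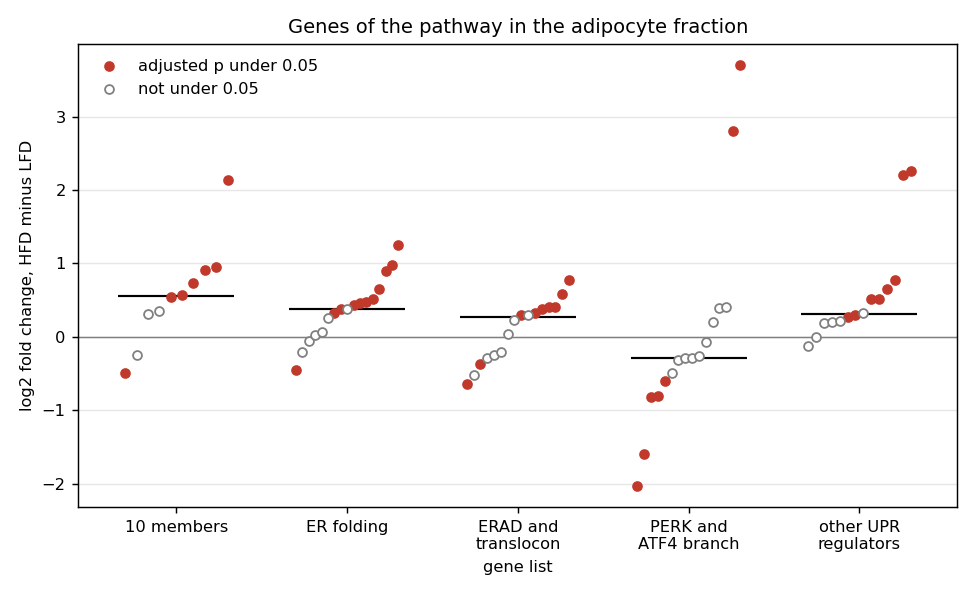
Log2 fold change, HFD minus LFD in the adipocyte fraction, of the genes of each list, with 1 point per gene ordered by value and a black line at the list's median; red points have an adjusted p under 0.05. The median of the PERK and ATF4 branch was -0.29, below 0, and those of the other lists were between 0.27 and 0.56.

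Among the ER folding genes Ero1lb, Calr, Hyou1 and Pdia3 had the largest called differences. Ero1lb, an oxidase that recharges disulfide isomerases, was at 18.9 to 22.9 CPM in HFD and 7.63 to 10.8 CPM in LFD (log2 1.26 ± 0.16 SE, adjusted p = 0.000154, edgeR), and at 13.6 to 16.0 CPM in SW, above every lean library (adjusted p = 0.00852). Calreticulin (Calr), a chaperone of glycoproteins, was at 836 to 985 CPM in HFD, 421 to 495 CPM in LFD and 599 to 907 CPM in SW (log2 0.97 for HFD and 0.67 for SW, each minus LFD). Hyou1, which exchanges the nucleotide of BiP, was at 80.1 to 108 CPM in HFD, 40.5 to 57.6 CPM in LFD and 46.7 to 64.7 CPM in SW, so its SW libraries overlapped the lean ones. Pdia3, the isomerase that works with calreticulin, was at 628 to 789 CPM in HFD, 421 to 442 CPM in LFD and 524 to 678 CPM in SW (log2 0.65 for HFD minus LFD).

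In ERAD and the translocon the called genes went both ways. Edem3, a mannosidase that marks glycoproteins for degradation, was at 40.2 to 49.4 CPM in HFD, 22.7 to 31.4 CPM in LFD and 21.9 to 27.6 CPM in SW (log2 0.77 ± 0.16 SE for HFD minus LFD, adjusted p = 0.00253, edgeR). Sec61a1, the channel subunit of the translocon, was at 142 to 150.1 CPM in HFD, 88.7 to 101 CPM in LFD and 116 to 150.0 CPM in SW. Sel1l, the adaptor of the ERAD ligase, had a log2 fold change of 0.41 and Derl1, an ERAD channel component, one of -0.64 (139 to 163 CPM in HFD and 209.6 to 273 CPM in LFD). Derl1 thus moved in the direction of Herpud1.

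In the PERK and ATF4 branch, Atf4 and Ddit3, the transcription factors at its centre, were not called. Atf4 was at 129.8 to 135 CPM in HFD and 154 to 166 CPM in LFD (log2 -0.29 ± 0.12 SE, adjusted p = 0.0725, edgeR), and Ddit3, which encodes CHOP, was at 20.4 to 28.6 and 23.5 to 31.8 CPM (adjusted p = 0.309). Phgdh, the first enzyme of serine synthesis, was at 87.5 to 162 CPM in HFD, 423 to 541 CPM in LFD and 246 to 317 CPM in SW (log2 -2.04 ± 0.25 SE for HFD minus LFD, adjusted p = 0.000129). Eif4ebp1, a repressor of translation, was at 76.0 to 131 CPM in HFD, 232 to 367 CPM in LFD and 197 to 238 CPM in SW (log2 -1.60). The list also held 2 genes that rose. Atf3, a stress-induced transcription factor, was at 192 to 262 CPM in HFD, 10.7 to 27.6 CPM in LFD and 168 to 209 CPM in SW (log2 3.70 ± 0.32 SE for HFD minus LFD, adjusted p = 1.94e-05). Gdf15, a secreted stress hormone, was at 11.5 to 18.6 CPM in HFD, 1.32 to 3.33 CPM in LFD and 23.1 to 25.8 CPM in SW, where it was also above HFD (log2 0.79 ± 0.22 SE, adjusted p = 0.0258). In SVC, scaled apart from adipocytes, Atf3 was at 23.4 CPM in LFD, 248 and 601 CPM in HFD and 215 to 264 CPM in SW. In the same order Gdf15 was at 2.62, 16.2 and 173, and 11.4 to 19.5 CPM. Phgdh was at 11.4 to 84.5 CPM over the SVC libraries and Eif4ebp1 at 37.3 to 85.8 CPM. The part of the cell type markers in these differences was not tested.

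Of the other regulators Wfs1, an ER membrane protein that restrains ATF6, was at 74.9 to 102 CPM in HFD, 17.7 to 20.8 CPM in LFD and 60.2 to 86.2 CPM in SW. Its log2 fold change was 2.21 ± 0.17 SE for HFD (adjusted p = 1.14e-05, edgeR) and 1.89 ± 0.17 for SW (adjusted p = 7.07e-05), each minus LFD. Mbtps2, the protease that makes the second cut of ATF6, was at 17.5 to 27.2 CPM in HFD and 11.5 to 15.2 CPM in LFD (log2 0.77). The kinase gene Eif2ak2, whose product PKR also phosphorylates eIF2α, was at 25.5 to 30.7 and 16.7 to 19.7 CPM (log2 0.64), and Eif2s1, which encodes eIF2α, was at 85.2 to 99.1 and 56.3 to 71.9 CPM (log2 0.52). In SW both of the last 2 were lower than in HFD (log2 -0.54 and -0.36). Over the SVC libraries, scaled apart from adipocytes, Wfs1 was at 55.2 to 194 CPM and Mbtps2 at 2.74 to 14.6 CPM. Eif2ak2 was there at 2.52 to 13.7 CPM and Eif2s1 at 12.0 to 50.6 CPM. The part of the cell type markers in the differences between diets was not tested.

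Over the 9 adipocyte libraries the genes whose log2 CPM followed Hspa5 most closely, among 9864 genes, were P4hb (Pearson r = 0.97), Polr3d (0.96), Pfkp (0.96), Ctnnbl1 (0.96) and Itgb5 (0.96). P4hb is a disulfide isomerase of the ER, Pfkp a glycolytic enzyme and Itgb5 an integrin subunit. Those most like Xbp1 were Pabpc4 (0.97), Chchd4 (0.97), Acadvl (0.96), Eif2b3 (0.96) and Arxes2 (0.95). Among the members, Hspa5 correlated most with Sdf2l1 (0.88) and Atf6 (0.87) and negatively with Xbp1 (-0.63) and Herpud1 (-0.56). The 9 points fall into 3 diets, so these correlations carry the differences between diets given above.

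In the SVC fraction the 2 HFD libraries, which stood apart as described above, also differed in the members. Hspa5 was at 761 CPM in the HFD library numbered 212 and at 338 CPM in that numbered 411, and Hsp90b1 was at 696 and 316 CPM, while Sdf2l1 ran the other way, at 44.0 and 65.5 CPM. The ratio of Hspa5 to Xbp1 counts was 6.54 in 212, close to the HFD adipocytes, and 1.49 in 411. In the single LFD library Hspa5 was at 266 CPM, Hsp90b1 at 158, Xbp1 at 342, Herpud1 at 101, Pdia4 at 56.6, Sdf2l1 at 26.9, Ern1 at 26.4, Atf6 at 25.5, Dnajb9 at 13.8 and Eif2ak3 at 12.0 CPM. With 1 library, no test against LFD was made.

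**Figure D4:**
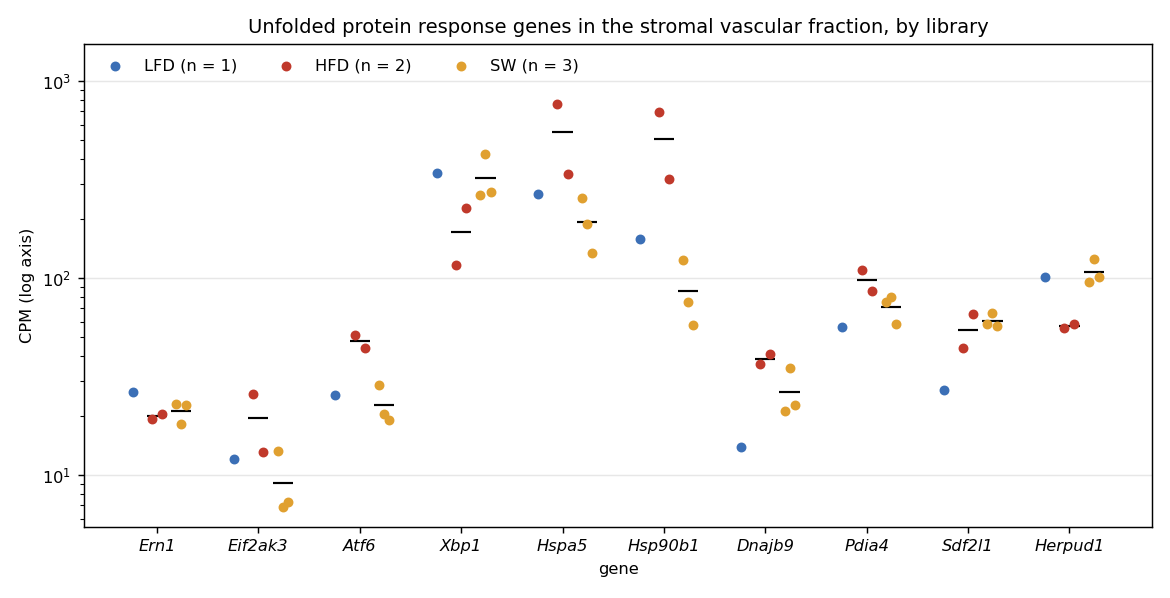
Level of the 10 members in each SVC library in CPM on a log axis, with 1 point per library (1 LFD blue, 2 HFD red, 3 SW orange) and a black line at the mean of groups with more than 1 library. Hspa5 and Hsp90b1 lay lower in the 3 SW libraries than in both HFD libraries, and Xbp1 and Herpud1 lay higher.

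SW stromal vascular cells had less Hsp90b1 and Atf6 and more Herpud1 than HFD ones by the test. These were 3 of 10 members, where 17.5% of all 16319 genes tested were called (5.71% higher, 11.7% lower). Hsp90b1 was at 124, 75.4 and 57.4 CPM in SW (log2 -2.56 ± 0.46 SE, adjusted p = 0.0362, edgeR). Atf6 was at 28.8, 20.4 and 19.0 CPM in SW and at 51.1 and 44.3 CPM in HFD (log2 -1.07 ± 0.26, adjusted p = 0.0435). Herpud1 was at 94.98, 124 and 102 CPM in SW and at 55.7 and 58.7 CPM in HFD (log2 0.90 ± 0.21, adjusted p = 0.0427). Hspa5 was at 254, 188 and 133 CPM in SW, below both HFD libraries, with an adjusted p of 0.0544 (log2 -1.52 ± 0.43), and Xbp1, at 263, 428 and 272 CPM in SW and 116 and 227 CPM in HFD, had an adjusted p of 0.128. The groups did not overlap for 7 members, 2 higher and 5 lower, as for 58.6% of all genes tested (28.5% higher, 30.0% lower).

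None of these 3 calls held in every fit, and an offset for GC content left no member and no gene called by edgeR (4 members and 4565 genes had an unadjusted p under 0.05). The size of the differences varied too. Over the 9 alternatives that kept all libraries, the log2 difference was -2.66 to -1.20 for Hsp90b1 and -1.17 to -0.39 for Atf6. It was 0.46 to 0.96 for Herpud1 and -1.62 to -0.70 for Hspa5. Without the HFD library numbered 212 no member was called, with Hsp90b1 at -1.81 (adjusted p = 0.0705), Atf6 at -0.89 (0.122) and Herpud1 at 0.94 (0.0927), and 503 genes of all were called. Without that numbered 411, 6 members and 6213 genes were called. Without any 1 of the SW libraries no member was called either, and 0 to 593 genes were. The summed macrophage markers were 10257 CPM in library 212, 21428 CPM in library 411 and 15396 to 22518 CPM in SW, and the epididymal epithelium markers 8.38, 186 and 7.32 to 11.6 CPM. The part of these differences and of the mitochondrial share in the members' values was not tested.

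The 2 fractions were compared within a diet on a common scale. In SW mice 7 of 10 members differed, 3 higher and 4 lower in adipocytes (68.4% of all 17441 genes tested were called, 32.8% higher and 35.6% lower). Their libraries did not overlap, as for 70.8% of all genes tested (35.0% higher, 35.8% lower). Both counts are near the share over all genes. Hsp90b1 was 5.30-fold higher in adipocytes (487 to 621 CPM against 67.4 to 152 CPM in SVC, log2 2.40 ± 0.31 SE, adjusted p = 1.59e-05, edgeR), and Hspa5 was 2.31-fold higher (log2 1.21 ± 0.28, adjusted p = 0.002). Dnajb9 was also higher in adipocytes (log2 0.68 ± 0.22, adjusted p = 0.0144), but with an offset for GC content its difference was -0.99 (adjusted p = 0.00269), and without the SW adipocyte library numbered 409 it was not called. Sdf2l1, Herpud1, Ern1 and Xbp1 were lower in adipocytes, with log2 differences of -1.37 ± 0.26, -1.34 ± 0.17, -1.33 ± 0.21 and -1.15 ± 0.27. The GC offset also ended the calls of Hspa5 (0.31, adjusted p = 0.266), Sdf2l1 (-0.28, 0.293) and Xbp1 (-0.48, 0.0893), and lowered the differences of Hsp90b1 to 0.95 and of Herpud1 to -0.67, which were still called, as was Ern1. With it Eif2ak3 was called higher and Pdia4 and Atf6 lower, so that 2 members were higher and 5 lower. Of all 17441 genes tested, 10094 were called with this offset, 4776 higher and 5318 lower. Xbp1, for example, was at 168 to 178 CPM in SW adipocytes and at 319 to 510.0 CPM in SW stromal vascular cells.

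**Figure D5:**
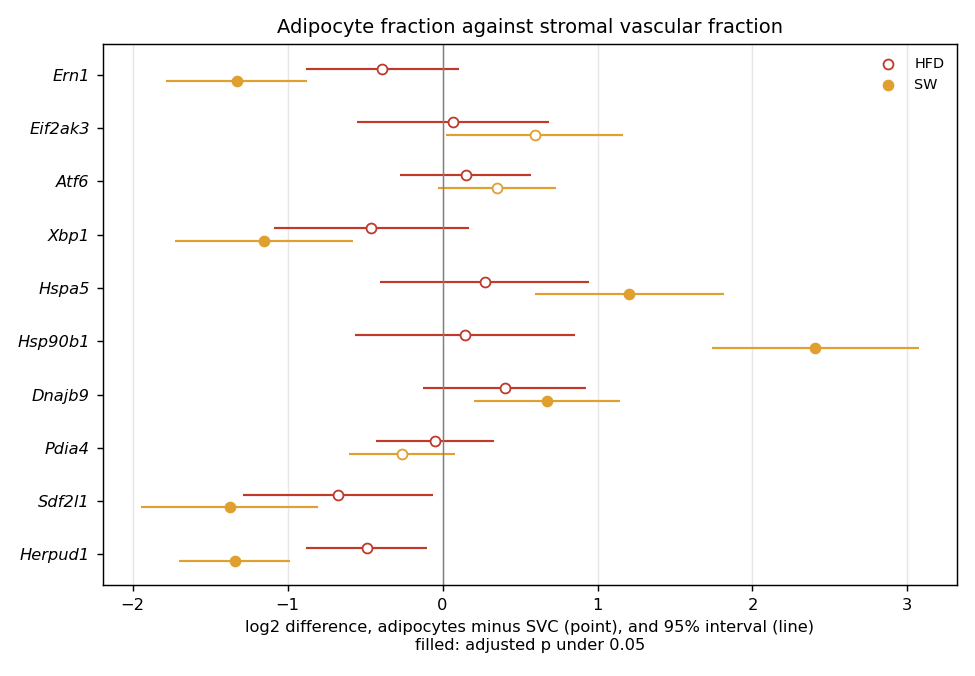
Log2 difference of each member, adipocytes minus SVC, in HFD (red) and SW (orange) mice, with 95% intervals from the edgeR fit over all 15 libraries; filled points have an adjusted p under 0.05. In SW 3 members lay above 0 and 4 below 0 by the test, and in HFD none was called.

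In HFD mice 0 of 10 members differed between the fractions by edgeR (29.1% of all genes tested were called, 12.9% higher and 16.2% lower), 2 had an unadjusted p under 0.05, DESeq2 called 1 and limma-voom 0. The libraries did not overlap for 4 members, 1 higher and 3 lower in adipocytes, as for 51.5% of all genes tested (25.7% higher, 25.8% lower). The intervals were wide, for Hsp90b1 from -0.57 to 0.85 and for Xbp1 from -1.09 to 0.17 on the log2 scale. With 1 library left out in turn, the difference was -0.26 to 0.72 for Hsp90b1 and -0.92 to 0.21 for Xbp1. Without library 212 or 411 the HFD group of SVC holds 1 library. A test of the difference itself, the change from HFD to SW in adipocytes minus that in SVC, called 3 members, 1 higher and 2 lower (27.1% of all genes tested were called, 15.7% higher and 11.4% lower). It was 2.26 ± 0.44 SE for Hsp90b1 (adjusted p = 0.00354, edgeR), -0.94 ± 0.31 for Ern1 (adjusted p = 0.04) and -0.85 ± 0.25 for Herpud1 (adjusted p = 0.0224). Without library 212, which leaves 1 HFD library in SVC, the value of Hsp90b1 was 1.69. Hsp90b1 was called in all alternatives, by 1.22 to 2.76. Ern1 was lost in 4 of the 9 that kept all libraries and without any of 401, 403, 405, 406, 407, 408, 409, 212, 412 and 413, with adjusted p up to 0.131, and Herpud1 with the GC offset (-0.42, adjusted p = 0.248) and without 402, 408, 212 or 414.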

How the data were processed

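The authors deposited expected counts per gene for each fraction, made with Bowtie2 and RSEM on the mouse transcriptome according to the study's methods and the submitters' processing notes, and the notes name mm9 and limma and give no versions. The deposited estimated counts were already whole numbers. Libraries held 5781902 to 23725647 counts. The column numbers are in no label, so libraries were tied to a diet group only, 3 columns that could be tied to no group were not used, and which of the single and paired-end runs each column was counted from is not given in the sources used here. No replicate pair agreed within sampling noise (chi-square at least 12.8 per degree of freedom).

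Genes were filtered with filterByExpr (minimum count 10), scaled by TMM and tested with the edgeR 4.0.16 quasi-likelihood test (R 4.3.3) in a fit over the 9 adipocyte libraries, the 6 SVC libraries or all 15. P-values were Benjamini-Hochberg adjusted over all genes tested, with a threshold of 0.05, and all adjusted p-values given are from edgeR unless another tool is named. The 95% intervals use the degrees of freedom that the fit's p-values imply. The fits were tested on simulated counts with the same spread for every gene and no outlying library. That test does not show how they perform on the unlike HFD libraries of SVC. Alternatives were RLE and upper-quartile scaling, DESeq2 1.42.0, limma-voom 3.58.1, no filter, at least 10 counts in every library, an offset for GC content, counts thinned to the smallest library, a fit restricted to the groups being compared, and the removal of each library in turn.

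The 10 members, the 4 pathway lists and the marker lists were chosen with earlier results of these data known. By rule the text names all members, up to 4 genes per list with the largest called difference between HFD and LFD adipocytes at a mean log2 CPM of at least 1, Atf4, Ddit3 and Gdf15, and the 5 genes most correlated with Hspa5 and with Xbp1 at a mean log2 CPM of at least 3. Promoter windows and their coordinates are from RefSeq on GRCm38.p6, and no mm9 coordinate was used. Python 3.11.15, pandas 2.3.3 and matplotlib 3.10.9 made the tables and plots.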

Additional observations from a re-analysis of the deposited data

Results flagged for a closer look

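For 3 of the 10 members the step from obese to formerly obese mice was unequal in adipocytes and stromal vascular cells by the interaction test, where 27.1% of all 17441 genes tested were called, so the count is near the share over all genes. For Hsp90b1 the change in adipocytes minus that in stromal vascular cells was 2.26 on the log2 scale, with 739 and 374 CPM in HFD and 67.4 to 152 CPM in SW stromal vascular cells (all libraries scaled together), and 536 to 749 and 487 to 621 CPM in adipocytes. For Ern1 it was -0.94, with 12.1 to 19.7 CPM in HFD and 8.43 to 10.9 CPM in SW adipocytes, and 20.5 and 24.2 CPM in HFD and 21.6 to 27.9 CPM in SW stromal vascular cells, and this call was lost in 10 of the 15 fits that left out 1 library. For Herpud1 it was -0.85, with 38.0 to 54.0 and 45.7 to 56.4 CPM in adipocytes and 59.2 and 69.5 CPM against 116 to 148 CPM in stromal vascular cells. The HFD stromal vascular group had 2 libraries with mitochondrial shares of 6.34% and 33.5%, and the part of that gap in these differences was not tested. Groups of 3 or fewer libraries were too small for the test of a single library far from the others.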

How the results depend on the processing

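Of the 630 values of single members recomputed with all libraries kept, 578 held their direction and side of the threshold, 18 passed it newly, 17 no longer passed it and 17 changed sign, and with 1 library left out these were 698, 25, 42 and 15. The number of members called (7, 4, 1, 3, 0, 7 and 3 in the order of the report) changed by over 1.5 times as follows. For SVC, SW against HFD, it was 1 with limma-voom and 0 with an offset for GC content, for the fractions in HFD it was 1 with upper-quartile factors, with DESeq2 and with at least 10 counts in every library, and for the interaction it was 1 with the GC offset. With 1 library left out it was 2 to 4 for SW against HFD and 1 to 2 for SW against LFD in adipocytes, 0 to 6 in SVC, 0 to 3 between fractions in HFD and 1 to 5 for the interaction; it was 2 without HFD library 401 or 403, and 2 without LFD library 404, where Dnajb9 joined Sdf2l1. Signs changed in SW against LFD for Pdia4 (-0.041 with upper-quartile factors, -0.026 when thinned) and Xbp1 (-0.014 with upper-quartile factors). In SVC the GC offset gave Dnajb9 0.90, Sdf2l1 -0.52 and Ern1 -0.031, and the count minimum in every library gave Ern1 -0.011. Between fractions in HFD the GC offset gave Hspa5 -0.027, Hsp90b1 -0.28, Dnajb9 -0.084 and Atf6 -0.16, thinning gave Atf6 -0.045 and upper-quartile factors gave Eif2ak3 -0.033. Between fractions in SW the GC offset gave Dnajb9 -0.99 and Atf6 -0.47, and for the interaction Dnajb9 -0.90 and Atf6 -0.31. With 1 library left out, Hsp90b1 in SW against HFD was -0.28 to 0.0078, and in SW against LFD Pdia4 was -0.037 to 0.061, Eif2ak3 -0.15 to 0.062 and Xbp1 -0.039 to 0.15. In SVC, Sdf2l1 was -0.039 to 0.47 and Ern1 -0.061 to 0.19. Between fractions in HFD, Hspa5 was -0.14 to 0.87, Hsp90b1 -0.26 to 0.72, Pdia4 -0.16 to 0.056, Eif2ak3 -0.28 to 0.54 and Xbp1 -0.92 to 0.21. The causes were not tested. Over all genes, calls moved by over 1.5 times in SVC (2849 calls; 5166 with DESeq2, 1719 with limma-voom, 0 with the GC offset, 0 to 6213 with 1 library left out), between fractions in HFD (5078; 2030 with the compared groups alone, 2528 without 411, 3255 without 402), for the interaction (4727; 2253 with the GC offset, 2936 without 212) and in adipocytes, SW against HFD (4546; 2299 without 401, 1522 without 403). Upper-quartile factors moved the median of all genes in HFD against LFD from -0.03 to -0.12. No paired analysis was possible because the library numbers of the columns are in no label. The single LFD library of SVC and the 2 unlike HFD libraries limit what that fraction can show.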
